A study of Rattus norvegicus with 8 samples.

Results

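Chemokine genes were followed in perfused rat liver, namely Cx3cl1, Cxcl1, Cxcl2, Cxcl9, Cxcl12, Cxcl16, Ccl2, Ccl3, Ccl4 and Ccl20. They were picked by symbol, with earlier results of these data known. Each of the 10 chemokine genes had exactly 1 probe set with a single gene symbol among the 14506 genes measured on the array. The livers came from male Wistar rats of 6 to 10 weeks, with no allele or drug named in the labels. Isolated livers were perfused with Krebs-Henseleit buffer, a salt solution that stands in for blood, at 305 mosm/L (normoosmotic, n = 4) or 225 mosm/L (hypoosmotic, n = 4). All 8 samples carry the time point of 120 min, within a protocol of up to 180 min. A buffer of low osmolarity makes cells take up water and swell. An isolated liver keeps its resident cells but receives no blood cells from a circulation, and how many animals gave the 4 samples of each group is not stated in the labels. A p-value here refers only to the scatter among these samples, part of which may be technical.

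Chemokines are small secreted or membrane-anchored proteins that direct the movement of leukocytes. They are sorted by the spacing of their first cysteines into CC, CXC and CX3C families, and they act through receptors coupled to G proteins. In liver they can be made by hepatocytes, Kupffer cells, sinusoidal endothelium, stellate cells and bile duct cells, and several of their genes are transcribed within hours of NF-kappaB activation.

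Values are the deposited log2 expression values, in which 1 unit is a 2-fold difference. A change is the hypoosmotic minus the normoosmotic mean, and a gene was called when its limma p, adjusted over all 14506 genes with the Benjamini-Hochberg method, was under 0.05. Array medians lay between 4.05 and 4.16. Of the members 0 lay among the 25% of genes with the lowest mean signal. Hepatocyte markers were bright on all arrays, with Alb, the albumin gene, at means of 13.07 and 13.03. RNA of whole liver was measured, so fewer cells of a type and less RNA per cell cannot be told apart. Probe sets differ in their response, so no level of a gene is set against that of another.

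Cx3cl1 rose in hypoosmotic samples and was the only member called. Ccl20 had the next largest upward change and Cxcl2 the largest downward one, and neither passed the test. The group means of the remaining 7 members differed by at most 0.29 log2 units. In total 1 of 10 members was called, 1 higher and 0 lower, where 1.98% of all genes were called in either direction and 0.558% higher. The members and the other lists below were chosen with earlier results of these data known, and the shares called may reflect that choice. The 4 values of the groups did not overlap for 3 members, with Cx3cl1 above and Cxcl1 and Cxcl2 below. Over all genes 8.27% were apart in this way, 3.21% above and 5.05% below. The median change was 0.07 over the 10 members and 0.04 over all genes.

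**Figure D1:**
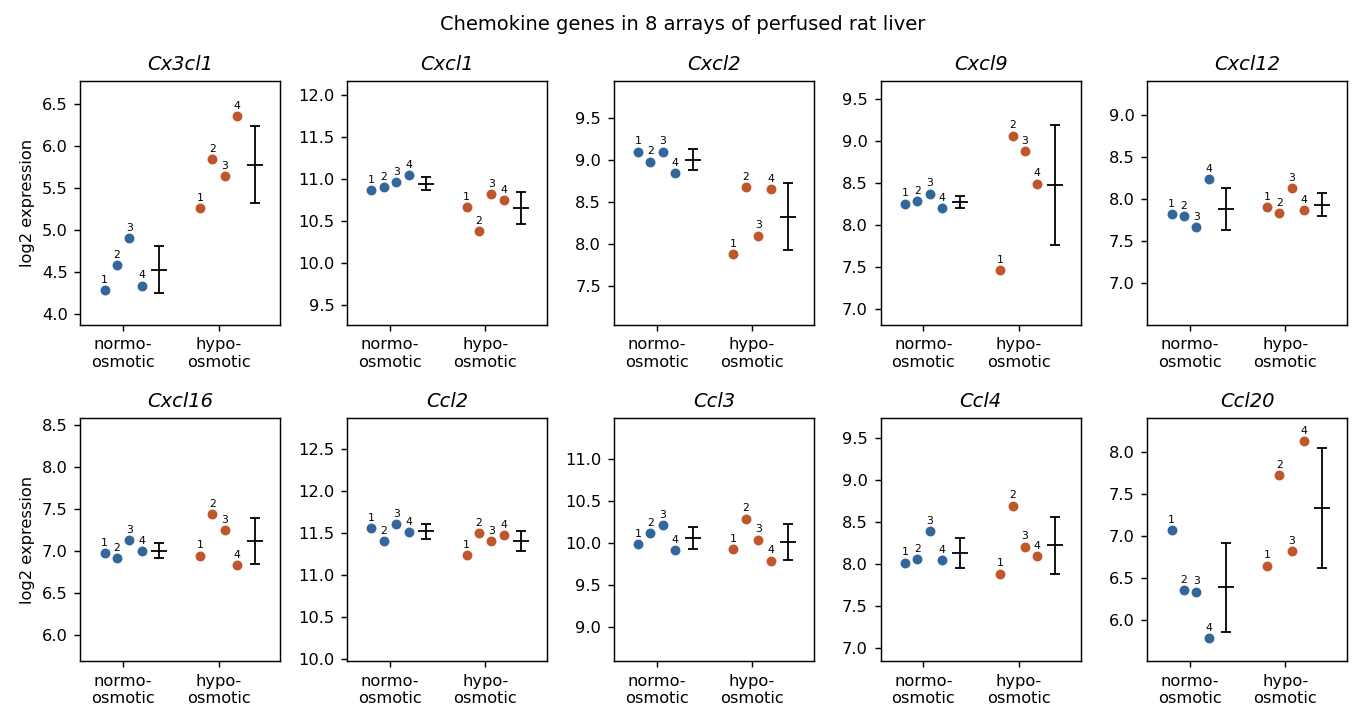
Log2 expression (vertical axis, the same span of 2.9 units in every panel) of the 10 chemokine genes in 4 normoosmotic (blue) and 4 hypoosmotic (orange) arrays, with replicate numbers above the points and the mean and SD of each group as a bar. The groups are apart for Cx3cl1, Cxcl1 and Cxcl2, and the hypoosmotic points of Cxcl9 spread from 7.46 to 9.06.

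The bases before the gene start are shown for the 4 members whose unadjusted p was under 0.05, since they had the smallest p-values. Over all genes 14.6% had an unadjusted p under 0.05, and of these 4 members Cx3cl1 was called. They are 150 bases each, read 5′ to 3′ on the strand of the gene and taken from RefSeq on the rat build GRCr8. Capitals mark matches to the NF-kappaB consensus motif or to TATAAA. The windows lie at chr19:10242821-10242970 (minus strand) for Cx3cl1, chr14:17479322-17479471 (minus strand) for Cxcl1, chr14:17467256-17467405 (minus strand) for Cxcl2 and chr9:91837009-91837158 (plus strand) for Ccl20.
Cx3cl1: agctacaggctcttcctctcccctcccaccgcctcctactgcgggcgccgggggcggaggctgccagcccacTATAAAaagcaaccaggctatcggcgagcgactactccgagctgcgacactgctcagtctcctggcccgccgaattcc
Cxcl1: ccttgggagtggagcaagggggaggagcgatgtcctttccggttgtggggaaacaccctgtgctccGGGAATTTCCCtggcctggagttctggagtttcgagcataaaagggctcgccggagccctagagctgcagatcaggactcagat
Cxcl2: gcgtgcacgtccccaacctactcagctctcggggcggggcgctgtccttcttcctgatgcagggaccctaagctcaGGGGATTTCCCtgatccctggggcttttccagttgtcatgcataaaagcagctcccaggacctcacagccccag
Ccl20: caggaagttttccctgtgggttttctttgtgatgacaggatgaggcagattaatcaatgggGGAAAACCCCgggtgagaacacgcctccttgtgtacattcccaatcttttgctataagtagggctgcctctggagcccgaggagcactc

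RefSeq promoter windows were at hand for 7 of the 10 members, all but Ccl2, Ccl3 and Ccl4. In the 250 bases before the start, the NF-kappaB consensus motif was matched on either strand in 3 of the 7, namely Cxcl1, Cxcl2 and Ccl20, and in 3.54% of 33465 promoter windows of the same length. The matches in Cxcl1 and Cxcl2 each consist of a pair of overlapping hits. TATAAA, searched on the gene's own strand, was found in Cx3cl1 and in 8.06% of all windows. The AP-1 motif TGANTCA and the Stat motif TTCNNNGAA, searched on both strands, were matched in 0 of the 7 members and in 6.34% and 7.67% of all windows. The span that RefSeq gives Cx3cl1 begins upstream of its window, so the window covers 1 start of that gene. A match is a description of letters in this window and not a binding site.

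Among the membrane-anchored chemokines, Cx3cl1 and Cxcl16 were measured. Cx3cl1 (probe set 10809269), or fractalkine, carries its chemokine domain on a mucin-like stalk and is cut from the cell surface by Adam10 and Adam17. It read 4.29, 4.58, 4.91 and 4.34 in normoosmotic replicates 1 to 4. In hypoosmotic replicates 1 to 4 it read 5.26, 5.85, 5.64 and 6.36. All 4 hypoosmotic values lay above the highest normoosmotic one. The mean went from 4.53 ± 0.28 to 5.78 ± 0.46 (SD, n = 4 each). The log2 change was 1.25 ± 0.21 (SE; limma, adjusted p = 0.00936), or 2.37-fold (95% interval 1.74 to 3.24). No detection call came with the values, so the normoosmotic signal may include background, and the fold is that of the deposited signals. Leaving out each array in turn gave changes from 1.05 to 1.42 and adjusted p-values from 0.00668 to 0.045, the last without hypoosmotic replicate 2. Cx3cl1 also varied within a group more than most genes, with a residual SD at the 96.7th percentile of all genes.

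Cxcl16, which serves as a ligand of Cxcr6 and as a scavenger receptor, did not follow Cx3cl1. It ranged from 6.92 to 7.13 in normoosmotic and from 6.84 to 7.44 in hypoosmotic samples, with a log2 change of 0.11 (95% interval −0.18 to 0.41; limma, adjusted p = 0.777). The hypoosmotic range enclosed the normoosmotic one. Whether the changes of these 2 genes differ was not tested.

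Cxcl1 and Cxcl2 attract neutrophils through Cxcr2 and lie next to each other in RefSeq. Cxcl2 (probe set 10775896) read 9.10, 8.98, 9.10 and 8.84 in normoosmotic replicates 1 to 4. It read 7.88, 8.68, 8.10 and 8.65 in hypoosmotic replicates 1 to 4. The groups did not overlap, and the hypoosmotic samples were spread more widely, with an SD of 0.40 against 0.12. The log2 change was −0.68 with a standard error of 0.17 (limma, unadjusted p = 0.00167, adjusted p = 0.0641). Its 95% interval of −1.05 to −0.31 corresponds to values 1.24 to 2.07 times lower. Cxcl2 passed the threshold when limma's prior was trended and robust (adjusted p = 0.0451) and without hypoosmotic replicate 4 (adjusted p = 0.0412), and missed it under the other 15 alternatives, with adjusted p-values up to 0.175.

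Cxcl1 (probe set 10775900) read 10.87, 10.90, 10.96 and 11.05 in normoosmotic replicates 1 to 4. It read 10.66, 10.38, 10.82 and 10.75 in hypoosmotic replicates 1 to 4. The groups were again apart, with the highest hypoosmotic value just under the lowest normoosmotic one. The log2 change of −0.29 ± 0.12 (SE) did not pass the test (95% interval −0.55 to −0.03; limma, unadjusted p = 0.0298, adjusted p = 0.273). Cxcl3, the further neighbour that also signals through Cxcr2, was dim at means of 2.45 and 2.44. These genes have similar sequences, and cross-hybridisation between their probe sets was not tested. The 2 members did not deviate together within groups. Hypoosmotic replicate 2 held the lowest Cxcl1 and the highest Cxcl2 of its group, and over the 8 arrays the deviations from the group means had a Pearson correlation of −0.49, given as a description.

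Cxcl9 is induced by interferon gamma and draws T cells through Cxcr3. Its group means were close, at 8.28 ± 0.07 and 8.47 ± 0.72 (SD, n = 4 each), but the spreads were not. It read 8.25, 8.28, 8.37 and 8.20 in normoosmotic replicates 1 to 4 and 7.46, 9.06, 8.88 and 8.49 in hypoosmotic ones. The hypoosmotic values of replicates 2 to 4 lay above all normoosmotic values and that of replicate 1 lay below all of them. The log2 change was 0.20 (95% interval −0.37 to 0.76; limma, adjusted p = 0.80). It was 0.54 without hypoosmotic replicate 1 (adjusted p = 0.103) and 0.0017 without hypoosmotic replicate 2 (adjusted p = 0.998). The residual SD lay at the 98.9th percentile of all genes. For Cxcl10 and Cxcl11, the neighbouring genes that share the receptor Cxcr3, the log2 changes were −0.13 and 0.0025, with adjusted p-values of 0.709 and 0.995.

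Ccl20 attracts cells that carry Ccr6 and was the member with the widest scatter, at the 99.5th percentile of all genes by residual SD. It read 7.07, 6.36, 6.34 and 5.79 in normoosmotic replicates 1 to 4. It read 6.65, 7.73, 6.82 and 8.13 in hypoosmotic replicates 1 to 4. Hypoosmotic replicates 2 and 4 lay above all normoosmotic samples, while replicates 1 and 3 lay below normoosmotic replicate 1. The log2 change of 0.94 ± 0.32 (SE) did not pass the test (95% interval 0.26 to 1.62; limma, unadjusted p = 0.0104, adjusted p = 0.159). Adjusted p-values under the 17 alternatives lay between 0.098 and 0.375.

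The CC chemokines of monocytes and lymphocytes, and Cxcl12, were not called. Ccl2, a ligand of Ccr2 on monocytes, ranged from 11.41 to 11.61 in normoosmotic and from 11.24 to 11.50 in hypoosmotic samples, and its residual SD was at percentile 8.52 of all genes. Its log2 change was −0.12 (95% interval −0.35 to 0.12; limma, adjusted p = 0.698). Ccl3 and Ccl4, neighbouring genes of inflammatory CC chemokines, had changes of −0.05 (−0.32 to 0.23) and 0.09 (−0.26 to 0.44), with adjusted p-values of 0.92 and 0.858. Ccl3 ranged from 9.91 to 10.21 and from 9.79 to 10.29, and Ccl4 from 8.02 to 8.40 and from 7.89 to 8.70. Their deviations from the group means had a Pearson correlation of 0.84 over the 8 arrays, and each had 0.85 with those of Cxcl16. Over all pairs of members the correlations ran from −0.67 (Cxcl1 and Ccl3) to 0.88 (Cxcl2 and Ccl20). These are descriptions, since all genes of an array share its RNA and hybridisation. Cxcl12, the ligand of Cxcr4 and Ackr3, ranged from 7.67 to 8.24 and from 7.83 to 8.13, with a change of 0.05 (−0.24 to 0.34; adjusted p = 0.914). The signs of the changes of Cxcl12, Ccl3 and Ccl4 were not stable, and each turned when single arrays were left out.

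**Figure D2:**
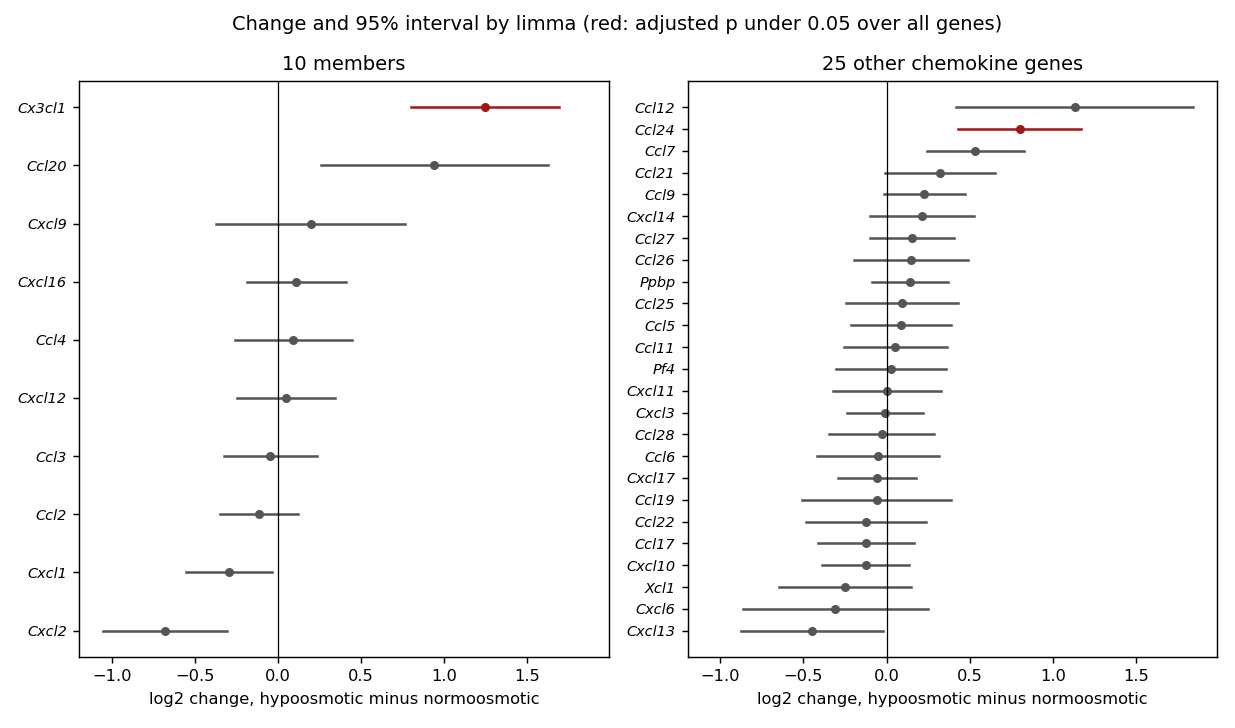
Log2 change (horizontal axis, hypoosmotic minus normoosmotic) with its 95% interval from limma for the 10 members (left) and 25 other chemokine genes (right), each ordered by change, with called genes in red. Cx3cl1 on the left and Ccl24 on the right are the called genes, and most other intervals include 0.

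Arrays within a group differed across several members at a time. Hypoosmotic replicate 2 was the highest of its group for 6 members (Cxcl2, Cxcl9, Cxcl16, Ccl2, Ccl3 and Ccl4), where 24.2% of all genes were highest there. Hypoosmotic replicate 1 was the lowest for 6 members (Cx3cl1, Cxcl2, Cxcl9, Ccl2, Ccl4 and Ccl20), against 24.6% of all genes. Normoosmotic replicate 3 was the highest for 6 members, against 24.3% of all genes. The mean of 11 Kupffer cell and macrophage markers was 7.12 in hypoosmotic replicate 2, the highest of its group (6.50 to 7.12), and 6.59 in hypoosmotic replicate 1. It was 6.44 in normoosmotic replicate 3, the lowest of its group (6.44 to 6.93). Hypoosmotic replicate 2 also had the highest mean of its group for sinusoidal endothelium markers (7.80) and for T and NK cell markers (3.61). The latter mean leaned on 1 gene, Cd4, which read 7.49 there against 6.66, 6.31 and 6.75 in hypoosmotic replicates 1, 3 and 4. Of the 10 T and NK cell markers 6 lay among the dimmest 25% of genes. The part of any of these cells in the members' values was not tested.

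**Figure D3:**
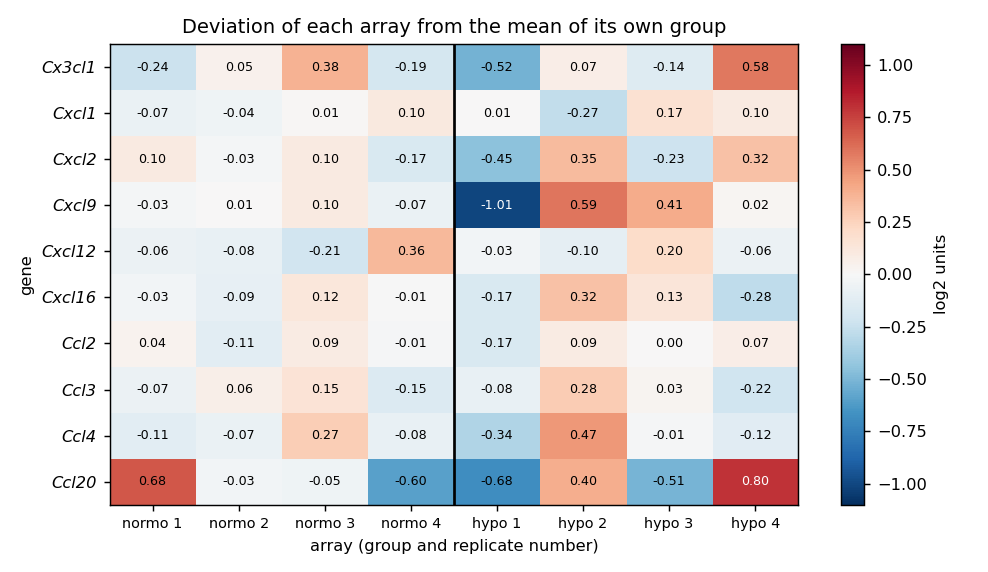
Deviation in log2 units (colour and number) of each array from the mean of its own group, for the 10 members in rows and the 8 arrays in columns. Hypoosmotic replicate 1 is low for Cxcl9 and Ccl20, and hypoosmotic replicate 2 is the highest of its group for 6 genes.

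The cell type markers called by limma were Fcgr3a and Tat. Over all genes 1.98% were called in either direction and 14.6% had an unadjusted p under 0.05. Of the 11 macrophage markers 0 were called and 0 had an unadjusted p under 0.05, with a median change of 0.11. Sinusoidal endothelium markers had 0 of 6 called, 0 at an unadjusted p under 0.05, and means of 7.44 to 7.84 in normoosmotic and 7.48 to 7.80 in hypoosmotic samples. The 9 stellate cell, 5 cholangiocyte, 10 T and NK cell and 2 B cell markers also had 0 called, with 1, 1, 2 and 0 at an unadjusted p under 0.05. Of the 8 neutrophil markers 1 was called, Fcgr3a, an Fc receptor gene that other myeloid cells express too, which rose by 0.68 ± 0.16 (SE; limma, adjusted p = 0.0428) and kept the call in 7 of 17 alternatives. Of these 8 markers 5 lay among the dimmest 25% of genes. Of the 8 hepatocyte markers Tat was called, lower by a log2 change of −0.76.

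Of 25 other chemokine genes, 1 was called higher and 0 lower. That is 4% called, against 1.98% of all genes in either direction and 0.558% higher. Ccl24, or eotaxin-2, a ligand of Ccr3, read 4.81, 4.46, 4.19 and 5.07 in normoosmotic samples and 5.32, 5.64, 5.31 and 5.46 in hypoosmotic ones, with the groups apart. It rose by 0.80 ± 0.17 (SE; limma, adjusted p = 0.0314), and the call was lost without each of 7 of the 8 arrays in turn, with adjusted p-values up to 0.116. Ccl7, a Ccr2 ligand and the RefSeq neighbour of Ccl2, read 6.12 to 6.65 and 6.87 to 7.11, also apart, with a change of 0.54 (adjusted p = 0.0619). Ccl12, another gene of that cluster, had a change of 1.13 (95% interval 0.42 to 1.85; adjusted p = 0.105) and was chosen after its values were seen. Cxcl13, chosen in the same way, went down by a change of −0.45 (95% interval −0.88 to −0.02; limma, adjusted p = 0.316). These 4 were the genes of the 25 with an unadjusted p under 0.05, where 14.6% of all genes had one. Of the 25 changes 14 were above 0 and 11 below, where 8507 of all 14506 genes had a change above 0 and 5999 below. The closest neighbours of Cx3cl1 in RefSeq are also chemokine genes, Ccl17 and Ccl22, and both had a change of −0.12, with 95% intervals of −0.41 to 0.17 and −0.48 to 0.24. Whether Cx3cl1 differs from them was not tested.

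Of 20 receptor genes 0 were called by limma, with 3 at an unadjusted p under 0.05, against 14.6% of all genes. The smallest p was that of Ccr10 (change 0.27, adjusted p = 0.295). Of the 20 receptors 7 lay among the dimmest 25% of genes. The receptors of the members, named for that role and outside the rule for named genes, included Cx3cr1 with a change of 0.10 (95% interval −0.18 to 0.38), Cxcr2 with −0.06 (−0.33 to 0.21) and Cxcr3 with 0.07 (−0.20 to 0.33). For Cxcr4 the change was 0.13 (−0.14 to 0.40), for Ackr3 0.12 (−0.17 to 0.41), for Cxcr6 0.07 (−0.21 to 0.36), for Ccr1 0.32 (−0.09 to 0.72), for Ccr2 0.27 (−0.21 to 0.74) and for Ccr6 0.19 (−0.15 to 0.52).

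Of 14 genes for the shedding and cleavage of chemokines, 2 were called higher and 0 lower. That is 14.3% called, against 1.98% of all genes in either direction and 0.558% higher. Both encode tissue inhibitors of metalloproteinases. Timp3, which inhibits Adam17, read 6.10, 5.50, 6.23 and 6.94 in normoosmotic and 7.32, 7.74, 8.35 and 7.24 in hypoosmotic samples. It rose by 1.47 ± 0.28 (SE; adjusted p = 0.0196) and kept the call in 11 of 17 alternatives. Timp1 rose by 0.96 ± 0.20 (adjusted p = 0.0282), with groups that overlapped, and kept the call in 10 of 17. The sheddase gene Adam17 had a change of −0.01 (95% interval −0.29 to 0.27). Rhbdf1, a partner of Adam17, had the smallest p of the uncalled genes (change −0.33, adjusted p = 0.176).

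Of 30 genes in a list termed transcription control genes, 2 were called higher and 1 lower. That is 10% called in either direction, against 1.98% of all genes. The list holds cytokines, transcription factors and feedback genes that control chemokine transcription. It also holds the adhesion molecule genes Icam1, Vcam1, Sele and Selp, to which that description does not apply. Nfkbie, which encodes an inhibitor of NF-kappaB, rose by 0.76 ± 0.14 (SE; limma, adjusted p = 0.0161) and kept the call in 15 of 17 alternatives. Irf1, an interferon-regulated transcription factor gene, rose by 0.67 ± 0.14 (adjusted p = 0.0326) and kept it in 10. Dusp1, a phosphatase gene that restrains MAP kinases, fell by 0.88 ± 0.18 on the log2 scale (adjusted p = 0.0258) and kept it in 11. Vcam1, an adhesion molecule gene, had the smallest p of the uncalled genes, with a change of −0.68 (adjusted p = 0.0574). Of the 30 changes 13 were above 0 and 17 below, with a median of −0.05. Over all 14506 genes 8507 changes were above 0 and 5999 below, with a median of 0.04. An unadjusted p under 0.05 (limma) was seen for 14 of the 30 genes, where 14.6% of all genes had one. Most of these 14 went down, namely Tnf, Il1a, Il1b, Nfkb1, Nfkbiz, Chuk, Jun, Atf3, Dusp1 and Vcam1. Those that went up were Il6, Nfkbie, Irf1 and Zc3h12a. Over all genes, too, more were called lower (1.42%) than higher (0.558%). The split by direction at an unadjusted p under 0.05 was not counted over all genes. The groups did not overlap for 23.3% of the 30 genes, against 8.27% of all genes.

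The genes most like Cx3cl1 over the 8 arrays were Uqcc6, S1pr2, Ascl3, C3h15orf48 and Ltb. They were ranked by Pearson correlation of the log2 values among genes outside the dimmest 25%. The correlations of 0.95 to 0.97 include the difference between the groups, and those of the deviations from the group means were 0.85 to 0.94. Both are high in part because these genes were picked as the most correlated over the same 8 arrays. Ranking against a called gene also favours genes that are called. Of these 5 genes S1pr2, a receptor gene for sphingosine 1-phosphate, was itself called, with a log2 change of 0.995 (limma, adjusted p = 0.00997).

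**Figure D4:**
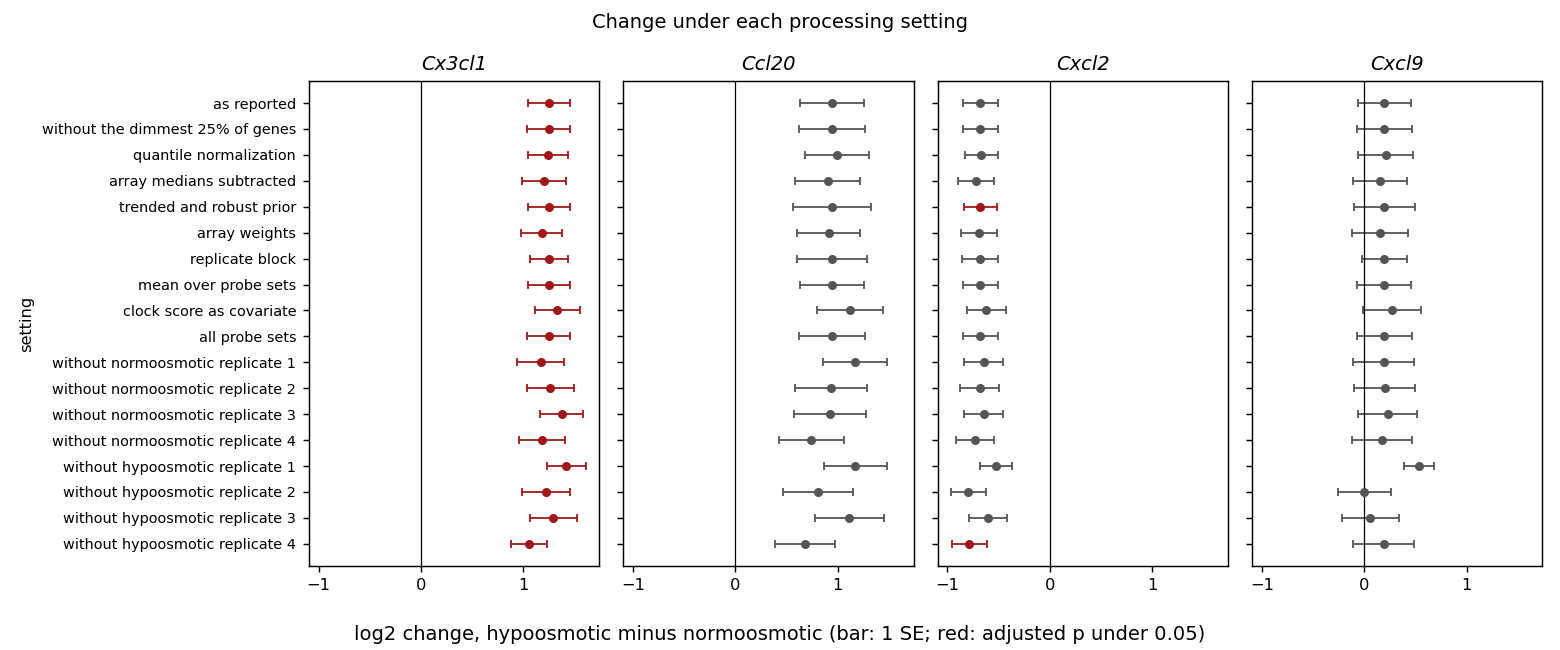
Log2 change (horizontal axis, hypoosmotic minus normoosmotic, bar 1 SE) of Cx3cl1, Ccl20, Cxcl2 and Cxcl9 under the reported setting and 17 alternatives (vertical axis), red where the adjusted p was under 0.05. Cx3cl1 is red in every row, Cxcl2 in 2 and the other genes in 0.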

How the data were processed

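Trizol-extracted RNA of 8 samples of perfused liver was biotin-labelled for 1-colour Affymetrix arrays, per the labels' protocols. Per the submitters' processing notes the software was Transcriptome Analysis Console 4.0. How probes were summarised, corrected for background and normalized is not given in the sources used here. For 27596 probe sets the authors deposited log2 values, whose scale is inferred from their range and which were used unaltered. Arrays have no read depth, and 4 arrays per group limit the precision.

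Of the probe sets 15310 had exactly 1 symbol in the platform annotation, 323 several, and 11963 stay unnamed. Symbols were updated by gene ID through RefSeq (GRCr8; 15279 matched). The probe set with the highest mean was taken for each of 14506 genes. Groups were compared with limma 3.58.1 in R 4.3.3 (lmFit, eBayes, group as the only term, two-sided, Benjamini-Hochberg over all genes), and the fit was tested on simulated data. Lists are described by counts, with no list test.

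The members, the lists and the rule for named genes were chosen with earlier results of these data known. The rule names the members, the called genes of each list and its uncalled gene with the smallest p, and the 5 genes most correlated with a called member. Alternatives were a filter on dim genes, quantile normalization, median subtraction, array weights, a trended and robust prior, a block for replicate number, the mean over probe sets, all probe sets, other thresholds, leaving out each array, and a clock score as a covariate (Bmal1 and Npas2, averaged, less the average of Dbp and Per3). Same-numbered samples had correlations of their deviations from the group means of 0.05, 0.03, 0.08 and 0.17, so the numbers were not taken as pairs.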

Additional observations from a re-analysis of the deposited data

Results flagged for a closer look

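Ccl4 in normoosmotic replicate 3 lay far from the other 3 arrays of its group, at 8.40 against 8.02 to 8.06. Its gap to the nearest array was 0.895 of the group's range, above Dixon's critical value at the 95% level. Chance gives such a gap in about 1 of 20 groups, and 1 of the 20 groups of 4 arrays tested had one. Without this array the change of Ccl4 was 0.18 log2 units (limma, adjusted p = 0.779).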

How the results depend on the processing

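The call of Cx3cl1 held under all 17 alternatives, with changes of 1.05 to 1.42, and leaving out single arrays left 1 member called higher each time. With 1 probe set per member, averaging probe sets altered only the adjustment. For Cxcl2 the change was −0.68 with the trended and robust prior and −0.80 to −0.53 without single arrays. Signs turned for Cxcl12 (−0.013 with the clock score, −0.021 to 0.17 without single arrays), Ccl3 (−0.14 to 0.029) and Ccl4 (−0.066 to 0.20). Members called lower were 1 with the trended prior, 1 at an adjusted p under 0.1 and 0 to 1 without single arrays.

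With the clock score 28 genes were higher and 64 lower, against 81 and 206 as reported. At an adjusted p under 0.1 there were 179 and 422, and 16 and 15 at a change of at least 2-fold. Without single arrays they were 25 to 100 and 56 to 287. With the clock score 0 transcription control genes were called in either direction, as were 0 other chemokine genes, 0 cleavage genes and 0 cell type markers called higher. Transcription control genes called lower were 2 after median subtraction, with the trended prior and with array weights. Other chemokine genes called higher were 2 after quantile normalization, cleavage genes 1 with the trended prior, and cell type markers 0 after median subtraction and over all probe sets. Without single arrays the counts were 0 to 2 for transcription control genes in each direction, 0 to 2 for cleavage genes, 0 to 1 for other chemokine genes and 0 to 1 for cell type markers called higher. The cause was not tested. With replicate number added as a block, the change of Cx3cl1 was 1.25 (adjusted p = 0.0147) and no member's call changed. In 2 of the 4 normoosmotic samples the best match was the same-numbered hypoosmotic one.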
